A study of Mus musculus with 8 samples.

Results

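The Myc family and the Max network were followed in cell lines grown from primary mouse small cell lung cancer, a neuroendocrine lung tumor. The set comprised 10 genes, found by symbol among the 22691 genes of the read count table: Mycl, Myc, Mycn, Max, Mxd1, Mxd3, Mxi1, Mnt, Mlx and Mga. Of these, 9 passed the filter on low counts, and Mycn did not. RNA-seq covered 4 libraries that overexpress mouse Nfib, a nuclear factor I transcription factor, and 4 libraries that carry an empty vector. Replicate 1 came from line Lmyc1 (called old in the sample descriptions), replicate 2 from Lmyc3 (old), replicate 3 from Lmyc3 (new) and replicate 4 from Lmyc5 (new), with 1 Nfib and 1 empty vector library each; old and new are not explained. All 8 libraries shared the labelled genotype, which includes invCAG-Mycl-Luc and Rb1-/-, on a mixed FVB/n and 129/Ola background. Both arms therefore carried the Mycl transgene, and reads of the transgene and of the endogenous Mycl gene cannot be told apart in counts per gene. The 4 pairs came from 3 lines, and nothing says that an arm was grown more than once, so the tests measure the spread between these samples.

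Myc, Mycn and Mycl proteins bind DNA at E-boxes as dimers with Max and raise transcription of genes for growth, ribosome assembly and metabolism. Mxd1, Mxd3, Mxi1 and Mnt pair with the same Max protein and recruit Sin3 corepressors to the same sites, so they oppose Myc. Mlx is a second, Max-like hub whose partners include the sugar-responsive factors Mlxip and Mlxipl, and Mga joins Max to a repressive polycomb complex. In small cell lung cancer the 3 Myc paralogs are recurrently amplified or overexpressed, usually one per tumor.

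The libraries held between 21815264 and 29934021 counts. Values are given as CPM, counts per 1000000 with library sizes scaled by TMM factors, and 3 counts corresponded to at most 0.138 CPM of total counts. Nfib itself, as a check of the labels, stood at 1281, 4672, 2929 and 3583 CPM in Nfib libraries 1 to 4 and at 71.9, 399, 163 and 487 CPM in empty vector libraries, and the groups did not overlap. Of the neuroendocrine markers, Chga, a protein of secretory granules, lay between 790.4 and 930.4 CPM in Nfib libraries and between 425 and 1691 CPM in empty vector libraries. Uchl1, a ubiquitin hydrolase of neurons and neuroendocrine cells, lay between 212 and 375 CPM in Nfib libraries and between 242 and 408 CPM in empty vector libraries. With Insm1, Syp, Ncam1, Dll3 and Calca, 7 such markers were examined; 0 passed the DESeq2 test within pairs described further on, and 5 had a negative log2 fold change. Syp, a synaptic vesicle protein, was lower with Nfib in all 4 pairs (-0.47 ± 0.16, SE, adjusted p of 0.0624), and Calca, a neuropeptide gene, in 3 (-0.87 ± 0.47, adjusted p of 0.403). Lmyc3 old, the culture with the most Mycl, had the least Insm1, 92.9 CPM with Nfib and 121 CPM with empty vector, and the least Dll3, 1.65 CPM with Nfib and 2.83 CPM with empty vector. With Nfib, Syp (87.6 CPM) and Calca (142 CPM) were also lowest in that culture. With empty vector they stood at 168 and 477 CPM there, and another culture was lower for each. Other markers went the other way there, in the empty vector arm only. With empty vector, Chga (1691 CPM), Uchl1 (408 CPM) and Ncam1 (242 CPM) were highest in Lmyc3 old. With Nfib they stood at 865, 336 and 206 CPM in that culture, and another culture was higher for each. Leukocyte markers summed to at most 2.49 CPM and fibroblast and endothelial markers to at most 12.9 CPM in any library, with Ptprc at 0 in 7 of 8 libraries. Lung epithelium markers summed to between 3.74 and 12.1 CPM with Nfib and between 2.48 and 12.9 CPM with empty vector, the highest sum holding 10.3 CPM of Sftpc, a surfactant gene. Of the 3 tested lung markers 0 passed. Foxj1, a factor of ciliated cells, was higher with Nfib in all 4 pairs (1.03 ± 0.36, DESeq2 adjusted p of 0.0740). Ager was near 0 (0.00 ± 0.46), and Sftpc (1.78 ± 1.25) had a log2 ratio of -3.67 in pair 2. The untested Sftpb, Sftpa1, Scgb1a1 and Krt5 had lower means with Nfib, at 0.236 CPM or less in every library. The part of these markers in the results was not tested. The median gene differed between the Lmyc3 old and Lmyc3 new cultures by 0.59 on the log2 scale with Nfib and by 0.58 with empty vector, more than between any other pair of the 4 cultures, where the values ran from 0.38 to 0.50 with Nfib and from 0.39 to 0.48 with empty vector.

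RefSeq start sites on GRCm38.p6 were found for 9 members; Myc was not among them. The windows run from 250 bases before to 50 bases after a start. They are shown because Mycl was the member that rose with Nfib and Mycn the member confined largely to 1 culture. The Mycl window (chr4:122995681-122995980, plus strand) held neither the E-box CACGTG nor the nuclear factor I motif TTGGC on either strand. It belongs to the endogenous gene, whose reads cannot be told apart from those of the Mycl transgene. The Mxd3 window also held neither, while each other member found had TTGGC in at least 1 window. In the Mycn window (chr12:12941787-12942086, minus strand), capitals mark 2 matches to the E2F sequence TTTGGCGC, which also contains TTGGC.
Mycl: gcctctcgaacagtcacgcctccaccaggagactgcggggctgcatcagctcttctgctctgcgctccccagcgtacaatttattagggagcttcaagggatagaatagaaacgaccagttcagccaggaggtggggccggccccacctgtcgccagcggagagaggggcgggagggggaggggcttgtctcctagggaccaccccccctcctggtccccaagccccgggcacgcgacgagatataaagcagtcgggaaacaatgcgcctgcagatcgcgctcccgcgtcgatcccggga
Mycn: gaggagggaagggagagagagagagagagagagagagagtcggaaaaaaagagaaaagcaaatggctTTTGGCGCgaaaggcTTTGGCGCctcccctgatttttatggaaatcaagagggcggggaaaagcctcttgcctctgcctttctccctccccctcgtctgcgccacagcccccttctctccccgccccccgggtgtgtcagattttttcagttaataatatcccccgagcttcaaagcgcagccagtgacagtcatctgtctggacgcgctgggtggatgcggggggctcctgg

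Of all 32851 such windows in the mouse table, 46.7% held TTGGC, 7.15% the E-box CACGTG, 0.514% the sequence TTTGGCGC and 0.0365% the full nuclear factor I palindrome, which no window of a member held. Both strands were searched. The members lie on GRCm38, per the deposited table, at chr4:122995652-123002485 (Mycl), chr15:61985341-61990374 (Myc), chr12:12936096-12941914 (Mycn), chr12:76937269-76962248 (Max), chr6:86647044-86669159 (Mxd1), chr13:55325168-55329758 (Mxd3), chr19:53310506-53375810 (Mxi1), chr11:74830920-74845725 (Mnt), chr11:101087277-101092207 (Mlx) and chr2:119897228-119969581 (Mga). The E-box, the letters that Myc and Max dimers bind, was present in the windows of Mnt, Mlx and Max. Stretches of 40 bases around it, with the E-box in capitals, lie at chr11:74830784-74830823 (plus strand) for Mnt, chr11:101087233-101087272 (plus strand) for Mlx and chr12:76962229-76962268 (minus strand) for Max. A match describes the letters only.
Mnt: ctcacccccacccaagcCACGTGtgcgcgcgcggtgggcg
Mlx: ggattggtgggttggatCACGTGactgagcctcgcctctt
Max: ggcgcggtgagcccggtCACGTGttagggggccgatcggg

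Mycl, which was first found amplified in small cell lung cancer, was the dominant paralog in every culture. In Nfib libraries 1 to 4 it stood at 179, 1126, 256 and 165 CPM, against 142, 462, 156 and 118 CPM in the empty vector libraries. Each Nfib library was above its own partner, while the groups overlapped because the Lmyc3 old culture was far above the other cultures in both arms. Myc, the founding member of the family, stood at 3.18, 1.01, 0.905 and 1.68 CPM with Nfib and at 2.51, 0.236, 0.0741 and 1.13 CPM with empty vector. Lmyc1 had the most Myc in both arms, and the 2 Lmyc3 cultures the least, with 22 and 21 counts with Nfib and only 5 and 2 counts with empty vector. Mycn, the paralog of neuroblastoma, stood at 0.392, 0.367, 0.259 and 9.62 CPM with Nfib and at 0.271, 0.708, 0.0741 and 13.7 CPM with empty vector. Lmyc5 was thus the culture with appreciable Mycn, represented by 247 counts with Nfib and 304 with empty vector, whereas no other library had more than 15.

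**Figure D1:**
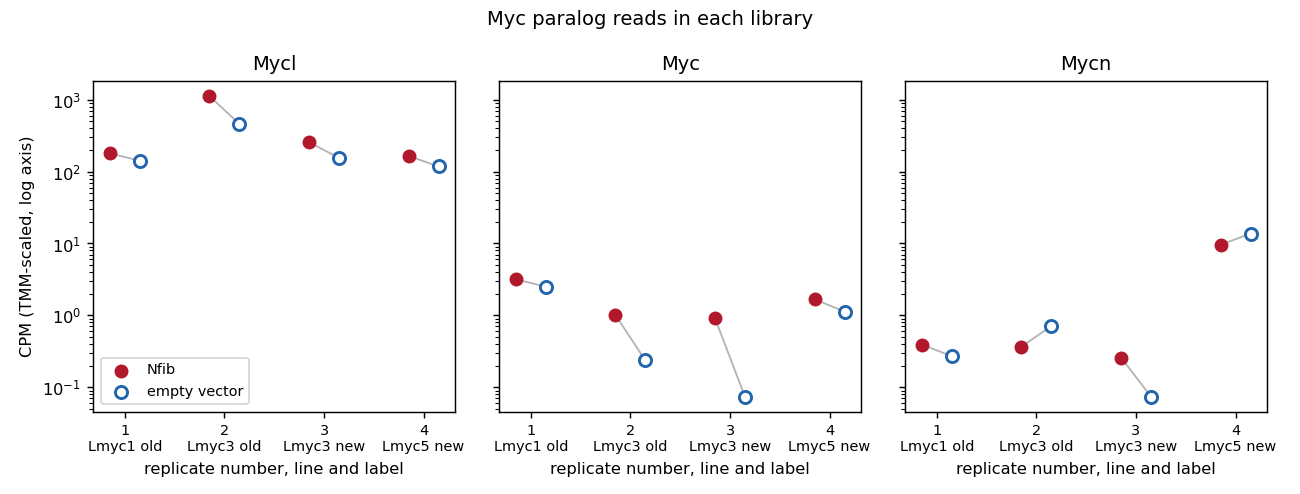
CPM (log axis) of Mycl, Myc and Mycn in each library, with the Nfib library (filled) left of the empty vector library (open) of the same replicate number, joined by a line. Mycl lies between 118 and 1126 CPM in all 8 libraries, and Mycn exceeds 1 CPM only in the Lmyc5 libraries, at 9.62 CPM with Nfib and 13.7 CPM with empty vector.

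Paralogs were set side by side per length, as RPKM over all annotated exon bases of a gene (GENCODE M21). Mycl made up 97.2%, 99.8%, 99.4% and 92.0% of the summed RPKM of the 3 paralogs in Nfib libraries 1 to 4, and 97.2%, 99.7%, 99.9% and 86.5% in the empty vector libraries. The lowest share, in the Lmyc5 empty vector library, went with Mycn at 12.3% of the sum. In that culture Mycl was 14.0-fold above Mycn with Nfib and 7.03-fold above it with empty vector. In Lmyc1 the next paralog was Myc, 38.0-fold below Mycl with Nfib and 38.1-fold below it with empty vector. In Lmyc3 old the next paralog was Myc with Nfib and Mycn with empty vector, on 22 counts or fewer of either, and in Lmyc3 new it was Myc in both arms. Mycl was first in all 8 libraries, while the order of the lesser paralogs differed between cultures and, in Lmyc3 old, between arms.

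The pairs address the response of the network to raised Nfib. In what follows, rose and fell mean an adjusted p under 0.05 in DESeq2's Wald test with the replicate number as a block. That test called 4.06% of 13380 genes, 1.86% of them higher and 2.2% lower with Nfib. Among the 9 tested members 1 rose, Mycl, and 0 fell. The log2 fold change of Mycl was 0.70 ± 0.16 (SE, DESeq2 Benjamini-Hochberg adjusted p of 0.00148), with CPM ratios of 1.26, 2.44, 1.65 and 1.40 in pairs 1 to 4. Without pair 2, whose ratio was the highest, it was 0.51 ± 0.11 (adjusted p of 0.000421), and Mycl also passed without each of the other pairs. With the Lmyc3 pairs summed and the line as block the value was 0.68 ± 0.17 (adjusted p of 0.00564). In edgeR's quasi-likelihood test with the block the estimate was 0.71 ± 0.16 (adjusted p of 0.188), and in limma voom with the block it was 0.74 ± 0.16 (adjusted p of 0.132). Neither of these called Mycl. EdgeR called 0% of the 13380 genes, with the block or without it, although 2012 genes with the block and 83 without it had an unadjusted p under 0.05. DESeq2 without the block gave Mycl no adjusted p and called 3 genes.

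Myc was higher with Nfib in all 4 pairs too, as were 12.8% of all tested genes, but did not pass. Its log2 fold change was 1.45 ± 0.73 (SE, DESeq2 adjusted p of 0.340), and the size depended on the fit. It was 0.77 without the block, 0.99 in limma voom with the block, 0.91 without pair 3 and 1.97 without pair 1, and Myc passed in none of the alternatives. In pair 3, Myc had 21 counts with Nfib and 2 with empty vector, a ratio of 12.2 in CPM with a 95% exact conditional interval from 2.99 to 107. In pair 2 it had 22 and 5 counts, a ratio of 4.28 with an interval from 1.58 to 14.5. In pairs 1 and 4 the ratios were 1.27 (interval from 0.905 to 1.78) and 1.49 (interval from 0.888 to 2.54), so that the higher ratios belonged to the cultures with the fewest Myc reads. These intervals cover counting error only. Mycn had ratios of 1.45, 0.519, 3.49 and 0.702, of which only the interval of pair 4, from 0.591 to 0.833, lay to one side of 1. With the low-count filter left out, the DESeq2 log2 fold change of Mycn was -0.05 ± 0.53 (adjusted p of 0.990).

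**Figure D2:**
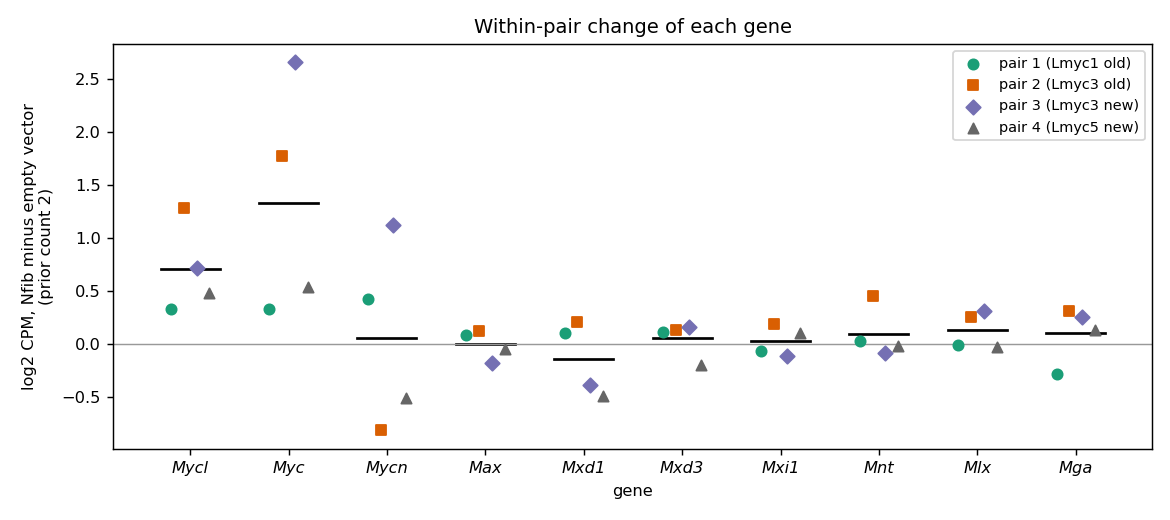
Difference in log2 CPM (prior count of 2) between the Nfib and the empty vector library of each pair, for the 10 genes; symbols are pairs and bars are means over the 4 pairs. Mycl lies above 0 in all 4 pairs, from 0.33 to 1.29, and the genes from Max to Mga scatter around 0.

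Max, the shared dimer partner, did not pass. It stood at 66.5, 116, 72.6 and 56.5 CPM in Nfib libraries and at 62.6, 107, 82.1 and 58.5 CPM in empty vector libraries. The Lmyc3 old culture was highest in both arms, as it was for Mycl, and the groups overlapped. The log2 fold change of Max was -0.01 ± 0.09 (SE, DESeq2 adjusted p of 0.988), and its sign depended on the scaling and on the pairs kept. Mlx, the second hub, stood at 62.9, 75.3, 93.6 and 53.1 CPM with Nfib and at 63.4, 63.2, 75.2 and 54.1 CPM with empty vector, a log2 fold change of 0.13 ± 0.11 (adjusted p of 0.699). It was higher with Nfib in both Lmyc3 pairs and within 0.03 log2 units of its partner in the other pairs. Of the annotated exon bases of Mlx, 19.3% overlap Psmc3ip on the opposite strand, and the strand setting of the counting is not known. Mga, the largest protein of the network, stood at 202, 271, 292 and 278 CPM with Nfib and at 246, 218, 244 and 253 CPM with empty vector. It was higher with Nfib in 3 of 4 pairs and lower in Lmyc1, with a log2 fold change of 0.10 ± 0.12 (adjusted p of 0.844).

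The members that oppose Myc gave the following values. Mxi1, the most abundant by CPM, was the most even gene of the set, at 88.8, 95.4, 85.2 and 96.7 CPM with Nfib and at 92.7, 83.4, 92.2 and 90.1 CPM with empty vector. Mnt, which is expressed in most cell types and antagonizes Myc in resting and dividing cells alike, stood at 52.1, 76.7, 39.9 and 52.3 CPM with Nfib and at 51.0, 56.0, 42.2 and 52.9 CPM with empty vector. Its Lmyc3 old Nfib library was above all others. Mxd3, linked to the S phase of cycling cells, stood at 27.4, 31.4, 32.4 and 34.7 CPM with Nfib and at 25.3, 28.5, 28.9 and 39.7 CPM with empty vector, highest in Lmyc5 in both arms. Mxd1, linked to differentiation, stood at 32.9, 19.5, 23.9 and 24.1 CPM with Nfib and at 30.6, 16.8, 31.2 and 34.0 CPM with empty vector. For these genes the groups overlapped, the log2 fold changes lay between -0.15 ± 0.18 (Mxd1) and 0.09 ± 0.13 (Mnt), and the smallest DESeq2 adjusted p was 0.8288. Non-overlapping groups were seen for 0 of the 10 members, against 0.516% of tested genes.

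Per annotated exon base, 3 of the 10 genes, Mycl, Mlx and Mxd1, held the same rank in every library, and the others changed places. Max has 3598 annotated exon bases, 1942 bases in its longest transcript and 480 coding bases. Mlx has 1999, 1965 and 894 in that order, and Mycl 4038, 3501 and 1104. Ranks by the other lengths are not given here and can differ. Mycl ranked first in all 8, at 107 ± 115 RPKM with Nfib and 54.3 ± 40.2 RPKM with empty vector (SD, n = 4 each). Mlx followed in all 8, at 35.6 ± 8.74 RPKM with Nfib and 32.005 ± 4.32 RPKM with empty vector. Max came next, at 21.7 ± 7.35 and 21.5 ± 6.11 RPKM with Nfib and with empty vector, then Mga at 16.99 ± 2.61 and 15.7 ± 0.996 RPKM. Max and Mga were not separated beyond their spread, since Max was higher in 3 Nfib and in 3 empty vector libraries. Mxi1 (13.4 ± 0.805 with Nfib, 13.1 ± 0.626 RPKM with empty vector), Mxd3 (13.3 ± 1.29 and 12.9 ± 2.65 RPKM) and Mnt (11.9 ± 3.33 and 10.9 ± 1.28 RPKM) changed places between libraries. Mxd3 ranged from rank 3 to rank 7, and in the Lmyc5 empty vector library it stood at 16.8 RPKM, above Mga (16.5 RPKM) and Max (16.2 RPKM). Mxd1 lay below them in all 8 libraries, at 3.55 ± 0.797 and 3.98 ± 1.09 RPKM. Mycn and Myc, at means of 0.807 and 0.623 RPKM with Nfib and of 1.12 and 0.363 RPKM with empty vector, took the last places, in an order that differed between cultures and, in Lmyc3 old, between arms.

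**Figure D3:**
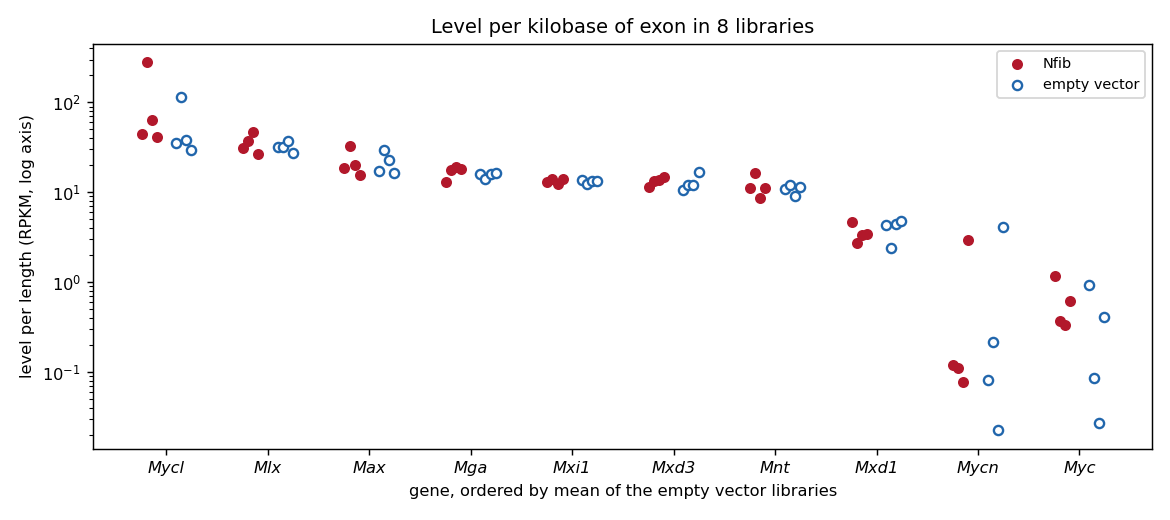
RPKM (log axis) of the 10 genes in 4 Nfib libraries (filled) and 4 empty vector libraries (open), drawn within each gene from replicate 1 at the left to replicate 4 at the right. Per annotated exon base Mycl is first in every library, and Mycn and Myc fall at or below 4.16 RPKM.

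Over all annotated exon bases, summed RPKM of the 3 Myc paralogs exceeded that of Max in all libraries. The excess was 2.47-fold, 8.63-fold, 3.16-fold and 2.83-fold with Nfib and 2.08-fold, 3.87-fold, 1.69-fold and 2.08-fold with empty vector. These ratios depend on the length chosen. Max has 3598 exon bases but 1942 in its longest transcript, and Mycl 4038 and 3501, so the longest transcript would give lower ratios. Max has 480 coding bases and Mycl 1104. By coding length the ratios would be lower still, and the excess over Max would not hold in every library. Ratios by other lengths are not given here. The sum of Mxd1, Mxd3, Mxi1 and Mnt varied little, between 38.2 and 46.5 RPKM with Nfib and between 38.7 and 46.2 RPKM with empty vector. The ratio of the Myc sum to this sum was 1.13, 6.002, 1.67 and 1.02 with Nfib, against 0.914, 2.96, 0.982 and 0.732 with empty vector. Mxd4, an Mxd gene outside the set, is left out of the opposing sum. It averaged 96.4 CPM with Nfib and 103 CPM with empty vector, so whether a ratio lies above 1 depends on the genes counted. Each pair had the higher ratio in its Nfib library, where Mycl makes up most of the Myc sum. RNA levels say nothing of protein, and these ratios carry no test.

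Differences between cultures were larger than those between arms for several members, and most tested genes differed between cultures as well. A quasi-likelihood F test in edgeR of the 4 cultures, after the mean change with Nfib, called 76.7% of all tested genes and 6 of the 9 tested members: Mycl (adjusted p of 0.000814), Max (0.00149), Mlx (0.0138), Mnt (0.0295), Myc (0.0309) and Mxd3 (0.0499). Each culture had 2 libraries in that fit. Mxd1 (0.0505), Mga (0.400) and Mxi1 (0.880) did not pass. Between the highest and lowest culture, Mycl differed by 6.81-fold with Nfib and 3.91-fold with empty vector, Myc by 3.51-fold with Nfib and 33.8-fold with empty vector (its lowest library there had 2 counts), and Max by 2.06-fold and 1.82-fold. Mxi1 differed by 1.14-fold and 1.11-fold, with an SD over cultures of 0.09 log2 units with Nfib and 0.07 with empty vector, where the median tested gene had 0.43 in either arm. Within Lmyc3, the old culture had more Mycl than the new one in both arms, 1126 against 256 CPM with Nfib and 462 against 156 CPM with empty vector.

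Whether the change with Nfib differed between the old and the new pairs was tested in edgeR as an interaction with the replicate block. It called 0% of genes, with 405 genes at an unadjusted p under 0.05, and DESeq2 called 7 genes. Mxd1 had log2 ratios of -0.39 and -0.49 in the new pairs 3 and 4, and of 0.11 and 0.21 in the old pairs 1 and 2. The difference, new minus old, was -0.60 ± 0.16 (edgeR adjusted p of 0.9997). For Mycl it was -0.21 ± 0.34 (adjusted p of 0.9997). Outside Lmyc3, old or new and the line cannot be told apart.

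Other genes of the network were taken from lists chosen with earlier results of these data known. Of 17 partner and cofactor genes, all tested, 1 rose and 1 fell. The riser was Mlxipl, the carbohydrate response factor that dimerizes with Mlx. It stood at 16.2, 2.30, 57.0 and 25.6 CPM with Nfib and at 8.64, 0.897, 34.3 and 11.8 CPM with empty vector. Every Nfib library was above its partner by 1.66-fold or more, while the cultures differed far more than the arms. The log2 fold change of Mlxipl was 0.96 ± 0.17 (SE, DESeq2 adjusted p of 7.2e-06), it passed when any 1 pair was left out, and edgeR with the block had 0.98 ± 0.12 (adjusted p of 0.117). Trrap, a scaffold of the acetyltransferase complexes that Myc recruits, stood at 378, 233, 316 and 253 CPM with Nfib and at 410, 281, 388 and 283 CPM with empty vector. It was lower with Nfib in each pair and fell by 0.22 ± 0.06 (adjusted p of 0.0205), but did not pass with total-count scaling (adjusted p of 0.101) or in any fit that left out a pair. Trrap did not pass either with the Lmyc3 pairs summed and the line as block (adjusted p of 0.146), in edgeR with the block (0.209) or in limma voom with the block (0.152). Mlxip, the other sugar-responsive partner of Mlx, and Mxd4, a further Mxd gene, did not pass (log2 fold changes of 0.02 ± 0.10 and -0.10 ± 0.16). The list's median log2 fold change was 0.01, against -0.01 over all tested genes.

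Of 40 listed targets of Myc, many of them ribosome assembly and nucleotide synthesis genes, 38 were tested, 0 rose and 1 fell. The gene that fell was Tfrc, the transferrin receptor for iron uptake. It stood at 600, 1036, 364 and 412 CPM with Nfib and at 765, 1240, 466 and 482 CPM with empty vector, lower with Nfib in each pair, and fell by 0.31 ± 0.06 (SE, DESeq2 adjusted p of 1.2e-05). Tfrc passed when any 1 pair was left out, and edgeR with the block had -0.30 ± 0.05 (adjusted p of 0.156). Of the 38 genes, 32 had a positive log2 fold change with a median of 0.10, where 48.5% of all tested genes were positive and the median was -0.01. The number with a positive value was between 29 and 34 over the other settings tried. In these, 2 genes rose with total-count scaling, and 1 with TMM factors, without the low-count filter or without replicate 2. Per pair the list's median log2 ratio was 0.06, 0.08, 0.17 and 0.07. The most abundant ones were the chromatin-associated Ptma (-0.01 ± 0.08), the nucleolar Ncl (0.09 ± 0.07) and the nucleolar Npm1 (0.22 ± 0.09, adjusted p of 0.162).

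Regulators of Myc protein stability, 12 genes, gave 0 risers and 0 fallers, with 10 negative log2 fold changes and a median of -0.06. Their most abundant members were the ubiquitin ligase Huwe1 (-0.02 ± 0.04), the kinase Gsk3b (-0.20 ± 0.07, adjusted p of 0.0813), which marks Myc for degradation, and the deubiquitinase Usp7 (0.00 ± 0.06). Of all tested genes 48.5% were positive, with a median of -0.01, and 4.06% were called, so 0 calls among 12 genes says little. The number of regulators with a positive value was 2, and between 1 and 4 over the other settings tried. The 9 other components of the polycomb complex of Mga and Max gave 0 and 0, with a median of -0.02. Its heterochromatin protein Cbx3 averaged 316 ± 38.3 CPM with Nfib and 324 ± 52.0 CPM with empty vector, and its subunit Rybp 117.5 ± 30.02 and 121 ± 14.1 CPM (SD, n = 4 each). Among them Tfdp1, an E2F dimer partner, stood at 4190 CPM with Nfib and 4437 CPM with empty vector in Lmyc1, and at 354 to 488 CPM with Nfib and 335 to 442 CPM with empty vector in the other cultures. Of 14 germ cell genes that this complex silences, 10 were found by symbol, and Sycp3, Stra8, Mael and Hormad1 were not. Of those found, 2 were tested, Stag3 and Sycp1, and neither passed. The germ cell genes found summed to between 1.13 and 5.78 CPM with Nfib and between 1.58 and 2.93 CPM with empty vector. The highest sum, in the Lmyc3 old Nfib library, held 4.73 CPM of Stag3. Of 5 targets of the Mlx branch, 4 were tested and 0 passed: Fasn (0.19 ± 0.10), Tkt (0.16 ± 0.08), Txnip (-0.16 ± 0.30) and Arrdc4 (0.14 ± 0.27).

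**Figure D4:**
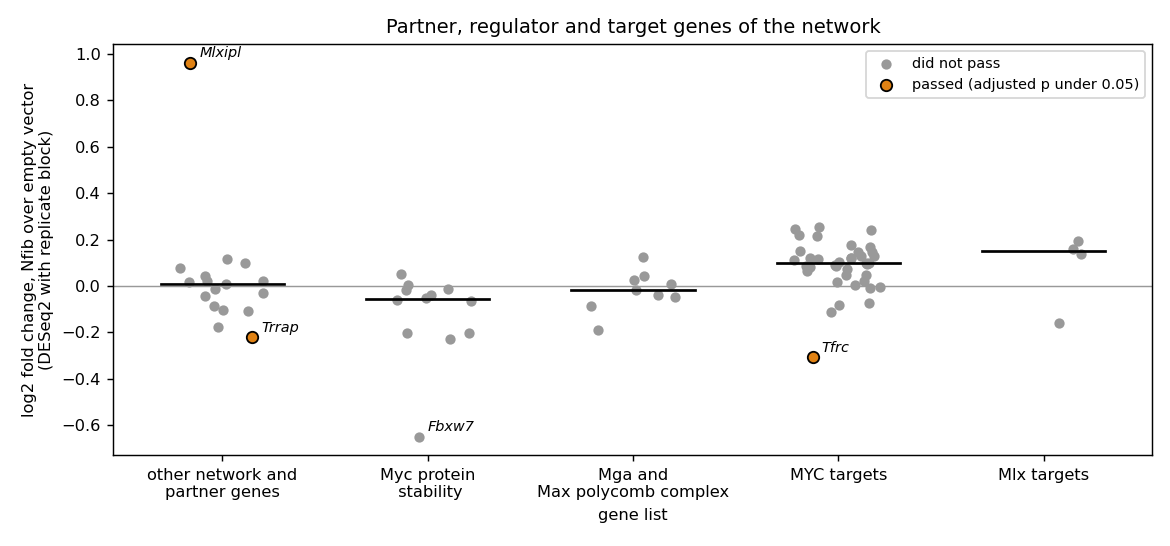
DESeq2 log2 fold change (Nfib over empty vector, replicate block) of tested genes in 5 lists; black bars are list medians and outlined points passed. Mlxipl (0.96) passed above 0, Trrap (-0.22) and Tfrc (-0.31) below 0, and the unpassed point at -0.65 is Fbxw7.

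Genes most alike to each paralog were ranked by Pearson r of log2 CPM over the 8 libraries, among 10937 genes with a mean of at least 5 CPM. The libraries share 4 cultures, so r follows the culture that stands apart. For Mycl they were Pno1 (r of 0.998), Atad1 (0.993) and Kti12 (0.991), which were highest in Lmyc3 old in both arms. For Mycn they were Arfgap1 (0.996), Lsm14b (0.987) and Mex3d (0.987), highest in Lmyc5. For Myc they were Rfng (0.952), Txnrd2 (0.948) and Amot (0.938). Genes beside Mycl on chromosome 4 were less raised than Mycl in Lmyc3 old, though most were above the other cultures there. In Lmyc3 old, Mycl lay above the mean of the other cultures by 2.52 log2 units with Nfib and 1.74 with empty vector, and the 14 tested genes within 1 Mb had medians of 0.31 and 0.41. Around Mycn on chromosome 12, the 3 tested neighbors in Lmyc5 had medians of -0.25 with Nfib and -0.27 with empty vector, where Mycn itself was 4.54 and 5.29 above the other cultures.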

How the data were processed

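The authors deposited a table of raw counts, 1 whole number per Ensembl gene and library, with symbols and coordinates. Libraries followed the Illumina TruSeq RNA protocol, per the labels' protocols. The submitters' processing notes name TopHat2 2.1, Bowtie 1.0.0, SAMtools 0.1.19, DESeq2 and the build GRCm38 (mm10); which program counted, with which strand setting and annotation, is not given in the sources used here. Groups came from the source field and replicate numbers from the titles. A further labelled allele and 1 marker gene are not reported here.

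The unpaired test was the original quasi-likelihood F test of edgeR 4.0.16 (R 4.3.3) with TMM factors, the expression filter by group (13380 genes) and Benjamini-Hochberg adjustment at 0.05. The within-pair test was DESeq2 1.42.0 (Wald, replicate block, same genes, its own size factors, fold changes not shrunk); limma 3.58.1 voom was an alternative. All were fitted over all genes. The edgeR SE was taken as the estimate over the root of its F. Replicate numbers pair the libraries because both come from 1 line by the labels; deviations from group means of same-numbered libraries had r of 0.908, 0.884, 0.935 and 0.929, all others being at most 0.065. On simulated counts both paired tests, DESeq2 and edgeR, called more unchanged genes than the threshold allows, DESeq2 the more; calls of DESeq2 are given beside the edgeR values.

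RPKM used TMM-scaled totals and the union of exons in GENCODE M21, which held 22423 of 22691 identifiers. Named genes were all members, list members that passed, and the most abundant members of other lists; Mlxip, Mxd4 and Arrdc4 were added for their place in the network. Members and lists were chosen with earlier results of these data known. Alternatives covered tools, block, scaling, filters and pairs left out.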

Additional observations from a re-analysis of the deposited data

Results flagged for a closer look

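In groups of 4 libraries, 1 sample stood far from the others (Dixon's test at the 95% level, which flags about 1 in 20 groups by chance; 30 groups were examined) in 5 cases. Mycl in replicate 2 was at 1126 CPM with Nfib and 462 CPM with empty vector. Mycn in replicate 4 was at 9.62 CPM with Nfib and 13.7 CPM with empty vector. For Mxd3 the log2 ratio of pair 4, -0.20, was the one that stood apart.

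In 3 genes both old pairs moved up with Nfib and both new pairs down. The share of all tested genes with such a split is not given here, and the new pairs of Mnt were at only -0.08 and -0.02. The mean log2 ratio of the new pairs minus that of the old pairs was -0.60 for Mxd1, -0.29 for Mnt and -0.22 for Max. The interaction test in edgeR with the replicate block gave these genes adjusted p-values of 0.9997.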

How the results depend on the processing

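The replicate block and the tool decided the number of calls. EdgeR called 0 genes without pairing and 0 genes with the replicate block. Without pairing it also called 0 with the other scalings and filters tried, and without each replicate. Its bias-adjusted form with the block called 44, and DESeq2 without the block 3. The within-pair DESeq2 count of 543 became 3 without the block, 0 in edgeR and 3 in limma voom with the block, and between 234 and 382 when a pair was left out (234 without replicate 3; leaving out replicate 1 or 4 also moved it by over 1.5 times). The interaction with old or new had 0 genes in edgeR and 7 in DESeq2. Mycl stayed positive throughout and did not pass in edgeR or limma voom with the block.

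Log2 fold changes near 0 changed sign. In DESeq2, Max was -0.0111 with the replicate block and 0.0022 without it. It was 0.0116 with the Lmyc3 pairs summed and 0.0239 with total counts. Within pairs and without 1 replicate, Max ranged from -0.0527 to 0.052, Mxi1 from -0.0299 to 0.0741 and Mnt from -0.0268 to 0.1516. In edgeR, Max was 0.0104 unpaired, -0.0030 with the block and -0.0027 in the bias-adjusted form with the block. In unpaired edgeR fits without 1 replicate, Max ranged from -0.0573 to 0.0711 and Mxd3 from -0.0037 to 0.1401. In the same fits Mxi1 ranged from -0.0231 to 0.0762 and Mnt from -0.0178 to 0.1782. Depth limits Myc and Mycn, which rest on 2 to 22 counts in the Lmyc3 libraries. The share of Mycl among its paralogs had its lowest value between 85.7% and 90.9% over the length choices.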

Other observations

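Tfdp1, a component of the polycomb complex of Mga and Max, was high in Lmyc1 together with its neighbors on chromosome 8. In that culture Tfdp1 lay above the mean of the other cultures by 3.40 log2 units with Nfib and 3.58 with empty vector. The 27 tested genes within 1 Mb had medians of 3.53 with Nfib and 3.71 with empty vector, and all were higher, by at least 1.37 and 1.22. They include Lamp1 (4.03 and 4.30), Gas6 (4.76 and 4.53) and the ubiquitin ligase scaffold Cul4a (3.39 and 3.51).

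Fbxw7, the ubiquitin ligase receptor that targets Myc proteins for degradation, was singled out after its values were seen. It stood at 35.4, 29.8, 34.3 and 34.0 CPM with Nfib and at 36.9, 92.5, 49.0 and 44.4 CPM with empty vector. All Nfib libraries were below all empty vector libraries, and the log2 fold change was -0.65 ± 0.26 (SE, DESeq2 adjusted p of 0.159). Groups that did not overlap, in either direction, were seen for 0.516% of tested genes. The within-pair log2 ratio was -0.06 in Lmyc1 and -1.63 in Lmyc3 old.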
